A study of Drosophila melanogaster with 8 samples.

Results

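Polycomb group proteins keep genes silent through cell divisions by acting on chromatin, and they do so in complexes. PRC1 holds Pc, a Polyhomeotic protein from the paired genes ph-p and ph-d, Psc or its paralog Su(z)2, and the ubiquitin ligase Sce. PRC2 methylates histone H3 through its enzyme E(z), with Su(z)12 and esc as partners, and the DNA-binding protein pho brings the complexes to their sites. These proteins are best known for holding Hox genes and other developmental regulators off outside the cells that need them. Chromatin accessibility at the 10 genes that encode them was read here from ATAC-seq peak lists, an assay in which the Tn5 transposase inserts adapters where DNA is open. Every peak that overlapped a gene body or the 1 kb on either side of it was taken. The gene set was chosen by name but also selected on a measured value, since a Su(z)2 peak was already known to be missing from the male fru+ list. These peaks fell into 15 of the 14709 regions found over the genome, a region being peaks of any of the lists that overlap by at least 1 bp.

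The cells came from central brains of adult Drosophila melanogaster and were sorted by flow cytometry with or without GFP under Fru-GAL4, a reporter of transcription from the fruitless (fru) gene. The 4 groups were fru+ males, fru+ females, fru- males and fru- females (also written male fru+ and so on), each with 2 replicates, 8 samples in all, and each gave 1 peak list. All groups shared the w1118 strain, an age of 2 to 7 days and the genotype UAS-mCD8-GFP/MB247-Gal80 with Fru-GAL4 over a TM2 or a TM6B balancer. FruM protein is made in males, so it marks the male fru+ group, except for fru Kenyon cells, in which MB247-Gal80 blocks GFP and which therefore fell in the fru- pools. Optic lobes had been removed, and brains were pooled for each sample.

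Peak height is given below as the deposited fold enrichment, which is the fragment pileup at the summit plus 1 over the local background plus 1. The local background is the larger of the coverage around the summit and the mean over the genome (the genome background). Peak strength is the -log10 of the q-value, given as a percentile rank within the list. With 1 list per group no replicate error and no test were possible, so each count at the Polycomb group genes is set beside the same count over all regions. The free-text descriptions of the female fru+ and male fru- samples name each other's group, and groups were taken from the titles. The fru gene had 17 peaks in fru+ males, 13 in fru+ females, 7 in fru- males and 6 in fru- females. Of the roX1 gene, which encodes a male dosage compensation RNA, peaks covered 1725 bp in fru+ males, 240 bp in fru+ females, 1711 bp in fru- males and 246 bp in fru- females. Peaks stood at all 4 neuronal marker genes (nSyb, elav, brp and Syt1) in every list, and of the glial pair repo had 0 peaks and nrv2 had 1 in every list. At the Kenyon cell markers, ey had 2 peaks in fru+ males and 3 in each other list, and mub had 20 in fru- females and 19 in each other list. The lists held between 11206 and 11602 peaks on the main chromosome arms, with genome backgrounds of 17.96 fragments in fru+ males, 14.3 in fru+ females, 18.9 in fru- males and 16.4 in fru- females.

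The sequences the members' peaks rest on are shown first, for the cases to which the results return. They are dm6 reference sequence, all on the minus strand, 5′ to 3′. None overlaps an annotated untranslated region, and other exons were not checked. Capitals mark GAGAG, the core read by GAGA factor, and GCCAT, the core read by Pho, on either strand (as CTCTC and ATGGC on the other). The 208-bp gap between Su(z)12 and its divergent neighbour Pfdn6 (chr3L:19923463-19923670) held the summit of the Su(z)12 peak in every list.
Su(z)12 to Pfdn6: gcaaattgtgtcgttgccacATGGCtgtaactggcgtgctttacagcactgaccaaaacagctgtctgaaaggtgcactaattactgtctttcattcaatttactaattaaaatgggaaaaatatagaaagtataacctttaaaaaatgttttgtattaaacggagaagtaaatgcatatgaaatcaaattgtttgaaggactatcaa
The 200 bp upstream of pho (chr4:1181629-1181828) held the summit of the pho peak in every list, the peak whose fold was lower in the fru+ lists of both sexes.
pho upstream: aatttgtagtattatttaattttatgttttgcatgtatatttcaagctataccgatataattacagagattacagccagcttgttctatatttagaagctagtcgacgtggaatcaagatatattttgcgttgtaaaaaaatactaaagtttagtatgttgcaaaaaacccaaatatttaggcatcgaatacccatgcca
The 300 bp upstream of ph-d (chrX:2123287-2123586) held the ph-d summit in every list.
ph-d upstream: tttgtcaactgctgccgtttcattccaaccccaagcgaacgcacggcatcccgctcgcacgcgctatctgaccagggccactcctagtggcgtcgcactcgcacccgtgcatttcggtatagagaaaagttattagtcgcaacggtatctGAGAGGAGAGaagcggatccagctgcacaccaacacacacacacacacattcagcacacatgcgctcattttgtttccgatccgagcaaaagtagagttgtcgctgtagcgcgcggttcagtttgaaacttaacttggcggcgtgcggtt
The stretch common to the 3 peaks between ph-p and ph-d (chrX:2125639-2125806) belongs to the region that had no peak in fru- females.
ph-p downstream: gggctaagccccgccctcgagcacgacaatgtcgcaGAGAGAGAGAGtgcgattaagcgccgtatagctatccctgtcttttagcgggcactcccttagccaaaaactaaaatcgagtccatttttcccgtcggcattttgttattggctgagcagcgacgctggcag
The 200 bp upstream of esc (chr2L:11829406-11829605) held no peak in any list.
esc upstream: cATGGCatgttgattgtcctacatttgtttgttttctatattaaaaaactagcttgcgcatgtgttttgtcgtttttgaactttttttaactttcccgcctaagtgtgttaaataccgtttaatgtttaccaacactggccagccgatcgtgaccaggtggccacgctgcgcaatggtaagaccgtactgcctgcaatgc
In the 250 bp upstream of each outermost start site, GAGAG stood in 4 of the 10 members (ph-p, ph-d, Su(z)2 and E(z)), against 25.7% of 13945 protein-coding promoters of that length. GCCAT stood in 5 of the 10 (ph-p, Psc, Su(z)12, esc and Sce), against 35.7%, and TATCGATA, the core of the DNA replication-related element, in 0 of the 10, against 7.996%. The stretch downstream of ph-p held GAGAG at 4 overlapping positions in 1 run. Of the 168-bp windows centred on the summits of the male fru- list, 30.9% held GAGAG at least once. A match describes letters, and says nothing of binding in these cells.

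Accessibility at the Polycomb group genes was largely shared by the 4 groups. Of the 15 regions, 12 had a peak in all 4 lists, against 56.1% of all regions. Of the 10 genes, 9 had a peak in every list, and esc had none in any, a state found in 36.0% of protein-coding genes. The members carried 14 peaks over 13312 bp in fru+ males, 15 peaks over 14608 bp in fru+ females, 15 peaks over 14566 bp in fru- males and 13 peaks over 14248 bp in fru- females. These are pools of many cell types, so fewer cells with an open region and less open DNA per cell cannot be told apart. Each of the 9 genes had a peak over at least 1 of its start sites in all 4 lists. Peak number differed between lists at 3 of them (ph-p, Su(z)2 and Sce), against 36.3% of genes with a peak.

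**Figure D1:**
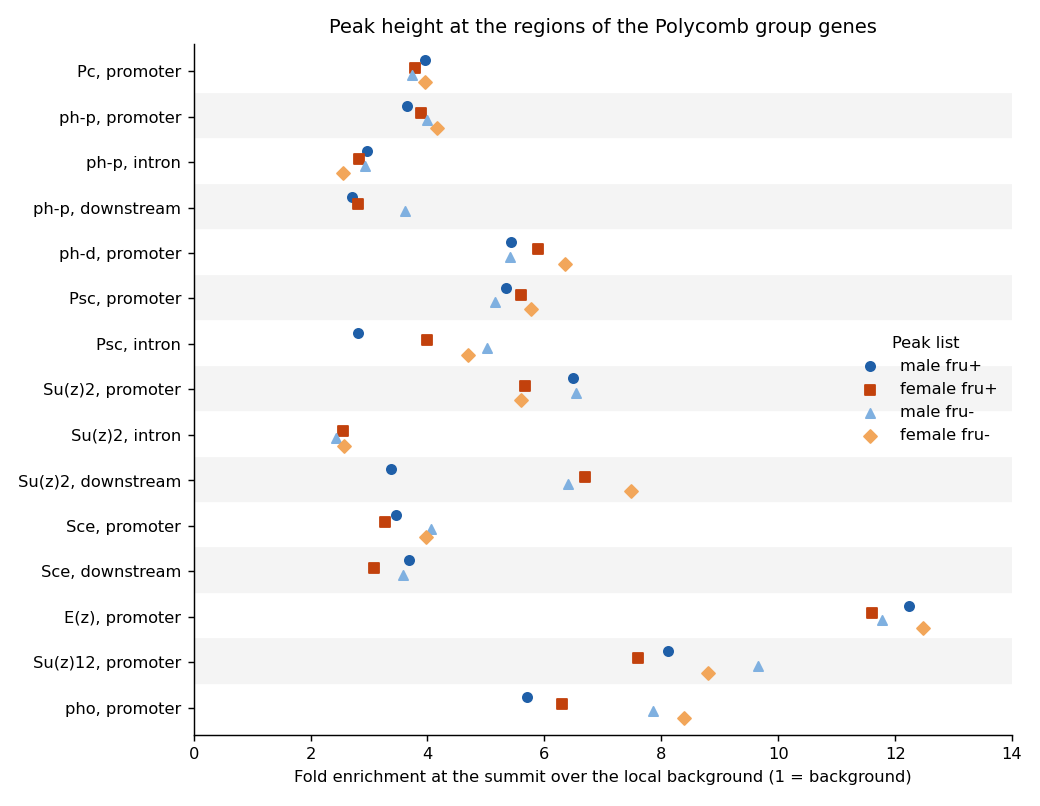
Fold enrichment at the summit (horizontal axis, 1 is the local background) for the 15 regions of the 9 Polycomb group genes with peaks, with 1 point per list and no point where the list had no peak. E(z) stands highest in all 4 lists (11.6 to 12.5), and male fru+ stands apart to the left at the Psc intron (2.80) and downstream of Su(z)2 (3.38).

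Among the PRC1 genes, Pc, whose chromodomain protein reads methylated histone H3, had 1 region (chr3L:21317540-21319986). Its peaks were 2447 bp wide in fru+ males, 2395 bp in fru+ females, 2381 bp in fru- males and 2394 bp in fru- females. The region also spanned the start sites of Rab26 and of lncRNA:CR45674, so it cannot be assigned to Pc alone. Its fold was 3.96 in fru+ males, 3.78 in fru+ females, 3.74 in fru- males and 3.95 in fru- females, so the lists lay close together in both height and width. The summit lay 320, 320 and 315 bp inside the gene from its start site in fru+ males, female fru+ and male fru-, against 31 bp outside it in fru- females.

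The Polyhomeotic genes, which encode SAM-domain proteins, are a tandem pair on the X. The promoter region of ph-p (chrX:2136416-2138630) covered all 3 of its annotated start sites. Its fold was 3.65 in fru+ males, 3.89 in fru+ females, 3.99 in fru- males and 4.16 in fru- females. The promoter region of ph-d (chrX:2122379-2124712) was higher in every list, at 5.43 in fru+ males, 5.89 in fru+ females, 5.40 in fru- males and 6.35 in fru- females. The ph-p and ph-d promoter regions share a stretch of 519 bp with 91.3% identity, the longest match of any member region elsewhere in the genome. Reads from such a stretch can fail the mapping quality filter, and its part in the peak heights was not tested. An intronic region of ph-p (chrX:2134541-2135711) had folds of 2.97 in fru+ males, 2.83 in fru+ females, 2.94 in fru- males and 2.55 in fru- females, again in all 4 lists.

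The remaining ph-p region (chrX:2125563-2125849) lay downstream of its gene body, in the 2923 bp between ph-p and ph-d. It had a fold of 2.71 in fru+ males, 2.80 in fru+ females and 3.62 in fru- males, with no peak in fru- females. Its peaks were narrow, at 210, 181 and 287 bp in those 3 lists. Their strength lay at percentiles 40.1, 52.4 and 56.7. It was 1 of 2 member regions absent from female fru- only, against 1.5% of all regions. The other such region lay near Sce. The stretch with the run of GAGAG printed above is the part that all 3 peaks between ph-p and ph-d shared.

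On the X, the summit pileup per genome background was lower in males than in females, as it was for the chromosome as a whole. Males carry a single X and females a pair, so copy number and accessibility cannot be told apart in this pileup. The ratio of male fru+ to female fru+ ran from 0.517 to 0.584 over the 4 shared regions of ph-p and ph-d, and the median over 1479 shared X regions was 0.631. The ratio of male fru- to female fru- had a median of 0.581 over 3 member regions and of 0.629 over 1508 X regions. On the autosomes the medians over all regions were 1.04 in both pairs. Fold enrichment, which divides by the local background, moved less at ph-p and ph-d, with ratios of male fru+ to female fru+ between 0.922 and 1.05. Over all 1479 shared X regions the median of this fold ratio was 0.849 and its 5th percentile 0.543. The ph-p and ph-d regions lay at percentiles 65.7 to 86.3 of these X regions.

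Psc and Su(z)2, which encode RING-finger subunits of PRC1, are neighbours on 2R and are read outward from a gap of 15506 bp. The promoter region of Psc (chr2R:12980023-12981332) had folds of 5.34 in fru+ males, 5.61 in fru+ females, 5.15 in fru- males and 5.77 in fru- females. Its pileup stood at 35.8, 32.9, 35.2 and 35.8 times the genome background in these lists, above at least 99.3% of the peaks of each. The promoter region of Su(z)2 (chr2R:12996216-12997705) reached 37.6 times in fru+ males, 35.3 times in fru+ females, 40.8 times in fru- males and 36.5 times in fru- females, the highest of any member in each list. Its fold was 6.48 in fru+ males, 5.67 in fru+ females, 6.537 in fru- males and 5.60 in fru- females.

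The summit of the Su(z)2 promoter peak sat in a different place in the sexes. In the male fru+ and the male fru- list it lay at chr2R:12997130, which is 629 bp inside the outermost start site and beside the inner one. In female fru+ it lay 20 bp inside the outermost start site, and in fru- females 89 bp. The peak itself spanned both start sites in every list, with widths of 1478 bp in fru+ males, 1471 bp in fru+ females, 1478 bp in fru- males and 1490 bp in fru- females. Male summits at least 400 bp from female summits, with each sex's pair within 100 bp, occurred in 1 of the 12 member regions present in all lists, against 0.303% of all such regions. That rule was set after these summits were seen, so the count is a description. Both male lists carry replicate 1 in their peak names and both female lists replicate 2, so sex and that name cannot be told apart. Over all 12 shared member regions, the spread of the 4 summits had a median of 88.5 bp, against 59 bp over all 8256 regions in 4 lists.

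**Figure D2:**
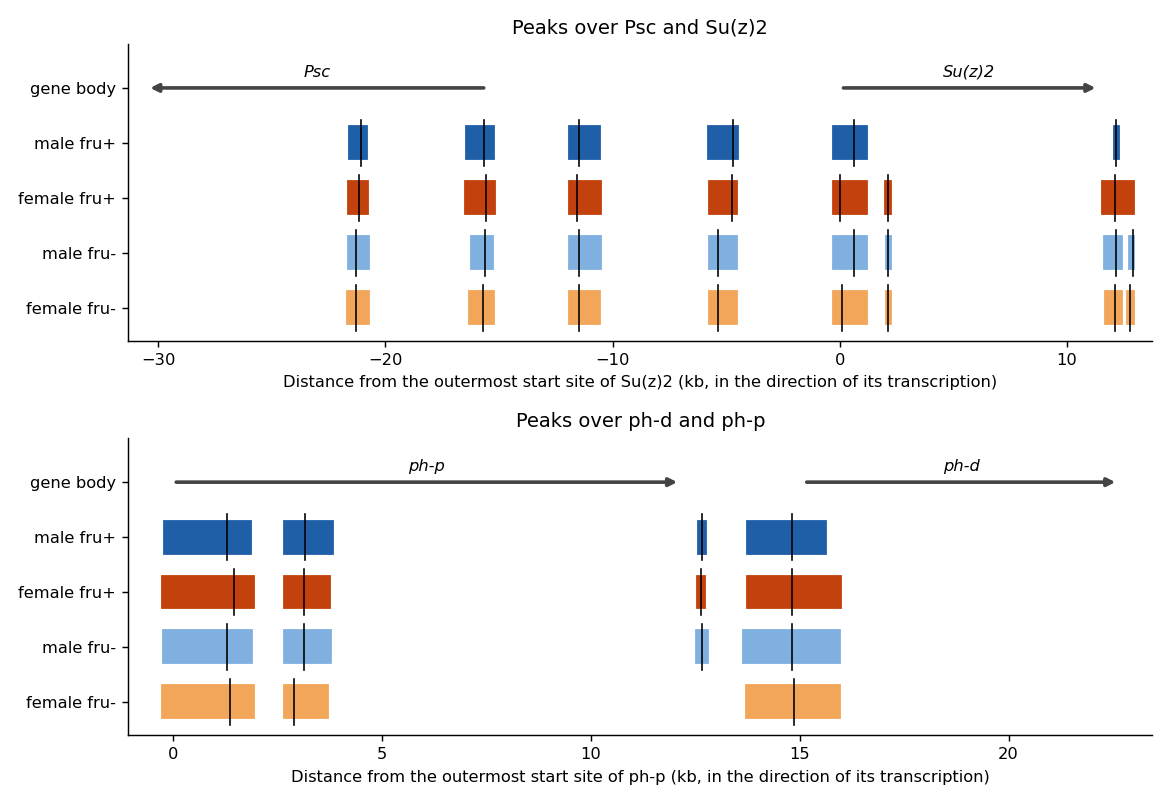
Peaks of the 4 lists (coloured bars, black lines at the summits) over the Psc and Su(z)2 pair (top) and the ph-p and ph-d pair (bottom), by distance in kb from the outermost start site of Su(z)2 or of ph-p, with arrows for the gene bodies in the direction of transcription. The Su(z)2 intronic peak is missing from the male fru+ row, the peak between ph-p and ph-d from the female fru- row, and the male fru+ peak downstream of Su(z)2 is the narrowest of the 4 (239 bp).

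An intronic region of Su(z)2 (chr2R:12998508-12998758), 2120 to 2132 bp from the outermost start site, had a peak in 3 lists and none in fru+ males. Its fold was 2.56 in fru+ females, 2.43 in fru- males and 2.57 in fru- females, in peaks of 234, 221 and 246 bp. The -log10 q was 28.6 in fru+ females, 37.0 in fru- males and 35.1 in fru- females. By this strength the peak lay close to the middle of each list, at percentiles 50.3, 49.7 and 51.3. By fold it was among the low peaks of these lists, at percentiles 11.3, 10.7 and 12.9. By summit pileup it stood at percentiles 78.9, 81.3 and 79.6. Of the 15 member regions, 1 was absent from male fru+ only, against 4.89% of all regions. The members were put forward with this absence known, so the count and the pattern are a description.

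The intronic peak stands on a high local background, at 5.33 times the genome background in fru+ females, 6.10 times in fru- males and 5.63 times in fru- females. The lists hold no value for a region without a peak, so the male fru+ signal there was not measured here. The region has no near copy in the genome, and its GC content was 55.8%.

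Downstream of Su(z)2, past its 3′ end, a region (chr2R:13008026-13009457) was open in all 4 lists and lowest in fru+ males. Its fold was 3.38 in fru+ males, 6.69 in fru+ females, 6.40 in fru- males and 7.47 in fru- females. The male fru+ value lay below the other 3, which ranged from 6.40 to 7.47. The pileup at the summit was 63 fragments in fru+ males, 101 in fru+ females, 127 in fru- males and 129 in fru- females. Scaled by the genome backgrounds, male fru+ stood at 0.521 of male fru- (95% exact binomial interval 0.379 to 0.710) and at 0.495 of female fru+ (0.355 to 0.685). These intervals cover counting error only. On the fold scale, the ratio of male fru+ to male fru- was 0.527, at percentile 0.321 of their 7795 shared autosomal regions. That of male fru+ to female fru+ was 0.505, at percentile 0.147 of 7474 such regions.

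The same region was also the narrowest in fru+ males. The peaks in the window were 239 bp wide in fru+ males, 1432 bp in fru+ females, 778 bp in fru- males and 756 bp in fru- females, and both fru- lists had another peak in the region past the window. It was 1 of 12 member regions with a total width that differed by at least 3 times between lists, against 2.94% of all regions. The width count was added after these widths were seen and is a description. The nearest other annotated gene on that side, CG13323, lies 36783 bp past Su(z)2.

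An intronic region of Psc (chr2R:12974833-12975806) had its lowest fold in fru+ males as well. The fold was 2.80 in fru+ males, 3.99 in fru+ females, 5.02 in fru- males and 4.69 in fru- females. The ratio of male fru+ to male fru- was 0.558, at percentile 0.462. The pileup ratio was nearer to 1, at 0.701 (0.521 to 0.937), with the local background at 1.55 times the genome background in fru+ males and 1.22 times in fru- males. Against female fru+, the fold ratio of male fru+ was 0.702 and the pileup ratio 0.765, with an interval (0.556 to 1.053) that includes 1. Male fru+ was lowest, with the other lists at least 25% higher, in 2 of the 12 shared member regions, against 5.05% of all regions. They were the Psc intron and the region downstream of Su(z)2. This count was not planned, and the members were put forward with an absence from male fru+ known, so it is a description.

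Outside the 1 kb flanks, the gap between Psc and Su(z)2 held another pair of regions, both in all 4 lists, described here after their values were seen. The region at chr2R:12990705-12992000 had folds of 4.30 in fru+ males, 4.17 in fru+ females, 8.85 in fru- males and 8.76 in fru- females. The fru+ to fru- ratio was 0.486 in males and 0.476 in females. Its pileup per genome background was nearly level, at 18.8 in fru+ males, 16.5 in fru+ females, 19.6 in fru- males and 19.4 in fru- females. What differed was the local background at the summit, at 4.32, 3.90, 2.17 and 2.16 times the genome background in the same order, with the summit 662 bp nearer to Su(z)2 in fru+ than in fru- males and 619 bp in females. The other region (chr2R:12984568-12985976) had folds between 4.20 and 4.66 in the 4 lists.

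Sce, the ubiquitin ligase of PRC1, is a short gene with low and narrow peaks. Its promoter region (chr3R:27681790-27682090) had folds of 3.46 in fru+ males, 3.28 in fru+ females, 4.05 in fru- males and 3.97 in fru- females. Both fru+ values lay below both fru- values. A second region (chr3R:27679144-27679486), at the start site of the neighbour CG12883, had folds of 3.69 in fru+ males, 3.08 in fru+ females and 3.57 in fru- males, with no peak in fru- females. It entered by the margin of the 1 kb flank, which its peaks overlapped by 8 bp in fru+ males, 56 bp in fru+ females and 27 bp in fru- males. Of peaks left just outside the flanks, the nearest to esc in fru+ males lay 1024 bp from the gene.

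Among the PRC2 genes, E(z), the methyltransferase, had the tallest peak by fold of all members. Its region (chr3L:10637621-10638675) had folds of 12.2 in fru+ males, 11.6 in fru+ females, 11.8 in fru- males and 12.5 in fru- females, above at least 95.7% of the peaks of each list. The groups were alike here, with summits at 30 bp inside the gene in both male lists and 25 bp in both female lists. The neighbour Cnep1r2 begins 15 bp away in the other direction. The region spans start sites of both genes, so it cannot be assigned to E(z) alone. Su(z)12, the zinc-finger partner of E(z), had 1 region (chr3L:19923052-19923993), with folds of 8.12 in fru+ males, 7.60 in fru+ females, 9.66 in fru- males and 8.80 in fru- females. Its summits lay 163 to 168 bp upstream of Su(z)12, in the gap shared with Pfdn6 that is printed above. The ratio of fru+ to fru- was 0.841 in males and 0.864 in females, at percentiles 19.8 and 18.4 of the shared autosomal regions.

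The gene esc, whose WD-repeat protein completes PRC2, had no peak in its body or flanks in any list. It is 2202 bp long and lies within the much longer Pde1c gene. The nearest peak was 1024 bp away in fru+ males, 2972 bp in fru+ females, 2792 bp in fru- males and 2808 bp in fru- females, with folds of 3.16, 3.21, 3.02 and 3.28. Of 2489 protein-coding genes of like length (the longer at most 25% longer than the shorter), 36.1% also had no peak. Its close relative escl, a gene of the wider list given below, had at least 1 peak in every list.

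The pho gene, which encodes the DNA-binding protein of the PhoRC complex, lies on the fourth chromosome. Its promoter region (chr4:1181079-1182113) had a fold of 5.70 in fru+ males, 6.29 in fru+ females, 7.85 in fru- males and 8.39 in fru- females. Both fru+ lists lay below both fru- lists. The pileup ratio of fru+ to fru- was 0.725 in males (0.562 to 0.934) and 0.753 in females (0.575 to 0.983), by intervals of counting error only. The fold ratio was 0.726 in males and 0.750 in females, at percentiles 5.16 and 3.56 of the shared autosomal regions. Their median lay at 0.9499 in males and 0.964 in females. Among regions of the fourth chromosome alone, 9 of 118 had a lower ratio than pho in males and 2 of 108 in females. Summits lay between 105 and 127 bp upstream of the start site in all lists, within the stretch printed above.

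Fold enrichment was lower in both fru+ lists than in both fru- lists at 5 of the 12 shared member regions, against 31.3% of all such regions. These were the promoters of ph-p, Su(z)12, pho and Sce and the Psc intron. The count was added after the data were seen. By summit pileup, the fru+ to fru- ratio at the Psc intron was 0.701 in males but 1.04 (0.762 to 1.41) in females. Pileup intervals of counting error included 1 at Su(z)12 and Sce in both sexes and at ph-p in females. At pho they excluded 1 in both sexes. Over all shared regions the median fold ratio of fru+ to fru- also lay below 1 in both sexes.

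The members also differed in the local background under their peaks. At 6 of the 12 shared member regions the local background was at least 2 times the genome background in every list, against 21.9% of all regions. These were the promoter regions of Pc, ph-p, ph-d, Psc and Su(z)2 and the ph-p intron. The local background count was also added after the data were seen. At the Pc promoter the local background was 5.64 times the genome background in fru+ males, 5.35 times in fru+ females, 6.15 times in fru- males and 5.57 times in fru- females, and the pileup 22.5, 20.4, 23.1 and 22.2 times. At the promoter of Sce, also a PRC1 gene, it was 1.15 times in fru+ males, 1.00 times in fru+ females, 1.03 times in fru- males and 1.00 times in fru- females. The E(z), Su(z)12 and pho promoters stood on local backgrounds equal to the genome background in every list. A pileup of 12.9 times the genome background in fru+ males thus gave E(z) a fold of 12.2, whereas 35.8 times gave Psc a fold of 5.34. The order of the members by fold and by pileup therefore differ, and neither orders the genes by their expression, which was not measured here.

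**Figure D3:**
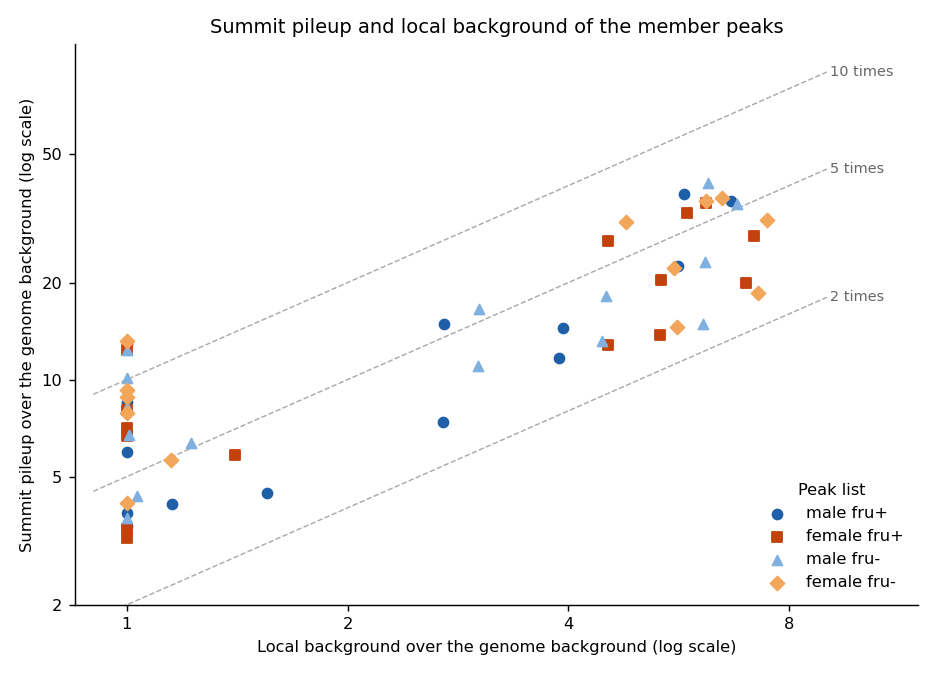
Summit pileup (vertical) against local background (horizontal), both as multiples of the genome background of the list and on log scales, with 1 point per member peak and list, and dashed lines at pileups of 2, 5 and 10 times the local background (without the added 1). The E(z) peaks sit near the 10 times line at a local background of 1, and the Psc and Su(z)2 promoter peaks at the upper right, between 32.9 and 40.8 times the genome background.

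Male fru+ and male fru- differ in fru transcription, in FruM and in the cell types sorted, which cannot be told apart here. This pair had 1 of 15 member regions in a single list, against 28.4% of the regions of that pair. Of the 14 shared regions, 2 differed in fold by at least 1.5 times, the Psc intron and the region downstream of Su(z)2, against 4.36%. Male fru+ against female fru+, which differ in sex and FruM, also had 1 of 15 in a single list, against 31.7%. Of the 14 shared regions, 1 differed by at least 1.5 times, again downstream of Su(z)2, against 6.42%. All 3 of these differences had the lower fold in fru+ males. These 2 comparisons share the male fru+ list, so the regions named in both are not independent of each other.

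Female fru+ and female fru- differ in fru transcription and in the cell types sorted, and neither group makes FruM. This pair had 2 of 15 member regions in a single list, those beside ph-p and Sce, against 23.3%. Of the 13 shared regions, 0 differed by 1.5 times, against 1.5%. Male fru- against female fru-, which differ in sex, had the same 2 of 15 in a single list, against 21.9%, and 0 of 13 shared regions differed by 1.5 times, against 3.11%. Both comparisons share the female fru- list, in which those regions had no peak.

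**Figure D4:**
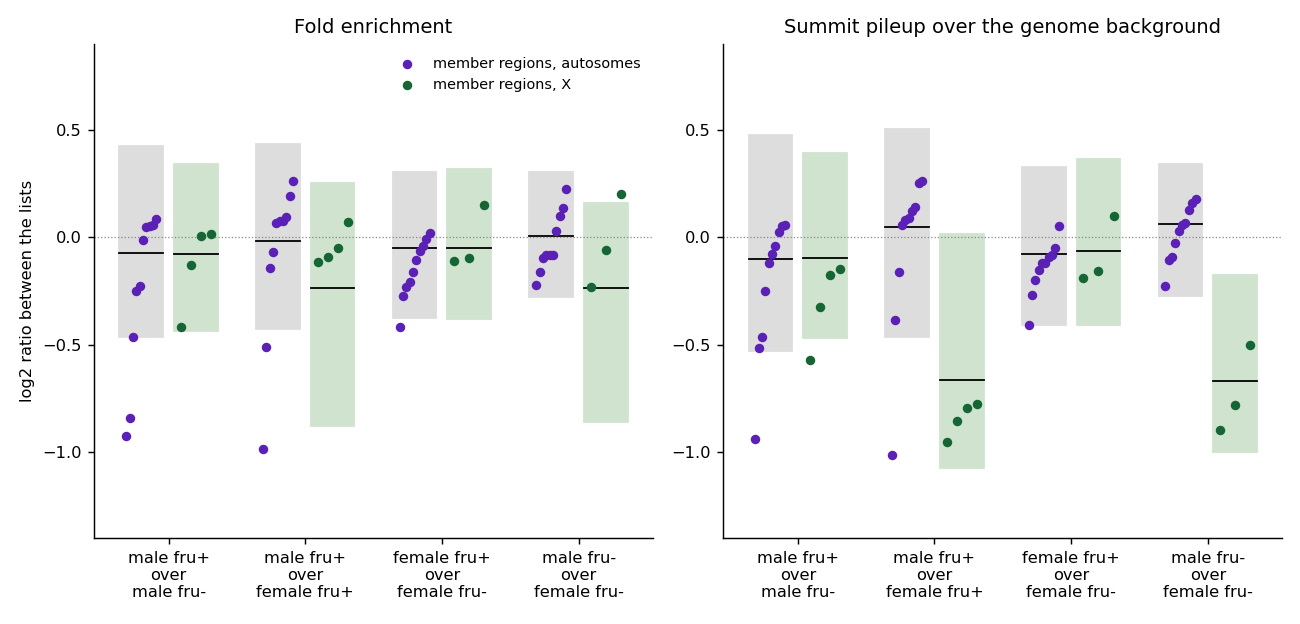
log2 ratios of fold enrichment (left) and of summit pileup over genome background (right) in the 4 pairs of lists, with 1 point per member region present in both, on the autosomes (purple) and on the X (green). Shaded boxes span the 5th to 95th percentile of all shared regions of the same chromosome class, with a line at their median. The lowest purple point in the male fru+ pairs is the region downstream of Su(z)2. The pileup ratios at ph-p and ph-d fall within the X box, except at the region between these genes in male fru+ over male fru-. Its ratio there is 0.672 (95% interval of counting error 0.536 to 0.839), below the lower edge of the box at 0.723.

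The other genes of the pathway were mostly open as well. Of 16 other Polycomb group genes, 14 had a peak in every list. Spps, which encodes a zinc-finger recruiter, had none, and Scm, a SAM-domain partner of PRC1, had a peak only in the fru+ lists, with folds of 2.58 in fru+ males and 2.56 in fru+ females and low percentiles of 10.6 and 6.28 (both named after their values were seen). These 16 genes held 47 regions, of which 30 (63.8%) were in all 4 lists and 2 absent from male fru+ only, both in jing, a long gene with 24 of the 47 regions. Of 13 trithorax group genes, which act against Polycomb silencing, all 13 had a peak in every list. They held 36 regions, of which 30 (83.3%) were in all 4 lists and 0 absent from male fru+ only.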

How the data were processed

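ATAC-seq was read from 4 peak lists, 1 per group. By the published methods, the authors trimmed reads with cutadapt, dropping those under 18 bases, aligned pairs to dm6 with Bowtie2 (fragments up to 1000 bp), removed duplicates with Picard, kept mapping qualities of at least 30 with SAMtools, and called peaks with MACS2 without a fragment model at an FDR of 0.001. Versions are not given in the sources used here, and no shifting of reads for the Tn5 offset is described. The labels describe each list as made from both replicates, but peak names carry replicate 1 in the lists of males and replicate 2 in those of females. Whether the lists rest on 1 or 2 replicates cannot be settled from them. The deposited columns used were the fold enrichment (a ratio of summit pileup to local background, with 1 added to each), the −log10 of the p-value and of the q-value, and the summit offset. The score column deposited by the authors repeats the q-value in whole numbers and was not used.

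Peaks of the main chromosome arms and of chromosome 4 were joined between lists where they overlapped by at least 1 bp. Genes came from Ensembl release 115, whose bounds for all 10 members equal those of RefSeq for dm6, the source of the sequences. A region was called a promoter where it lay within 50 bp of an annotated start site. The whole-number pileup was solved from fold and p-value (within 0.2% of p), which failed for at most 4 peaks of a list. The genome background, the most frequent local background, stands in for depth. Its ratio intervals are exact binomial at 95% and are too narrow if both mates of a pair were counted. Local background ranks used all peaks of a list. Near copies were sought with BLAST 2.17.0. Python 3.11.15, pandas 2.3.3, NumPy 2.4.6 and SciPy 1.17.1 were used, and the solver was tested on simulated data. Members, gene lists and thresholds were chosen with earlier results of these data known. Members are all described, and other genes were to be named where a region of theirs above percentile 50 set 1 list apart, which none did. The summit, width, local background, combined fru+ and lowest male fru+ counts were added after seeing the data. Replicates were described as independent, but no value per replicate was analysed here.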

Additional observations from a re-analysis of the deposited data

How the results depend on the processing

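No paired analysis was possible because each group had 1 peak list, with no value per replicate number. For the same reason no replicate could be left out. Of 58 recomputed values, 48 stayed within 1.5 times of the reported count and 10 moved. The 48 include values that could not move. A cutoff at a -log10 q of 5 could remove no member peak, as the weakest stood at 9.74. Lists cut to 11206 peaks each also kept every member peak. A stricter overlap between peaks cannot change the number of peaks. Regions in a single list of the pair became 2 instead of 1 with 2 kb flanks, both for male fru+ against male fru- and for male fru+ against female fru+. They became 0 instead of 2 with the gene body alone, both for female fru+ against female fru- and for male fru- against female fru-, since the regions beside ph-p and Sce lie outside the gene bodies. With folds that differed by at least 25%, shared regions that differed became 4 instead of 2 for male fru+ against male fru-, 2 instead of 1 for male fru+ against female fru+ and 1 instead of 0 for female fru+ against female fru-. By summit pileup, they became 1 instead of 2 for male fru+ against male fru-. They became 5 instead of 1 for male fru+ against female fru+ and 2 instead of 0 for male fru- against female fru-. All those added between the sexes lay at ph-p and ph-d on the X, of which males carry a single copy and females a pair. Over all shared X regions the median pileup ratios of these pairs were 0.631 and 0.629. The share of all regions called by pileup is not given here. None of these alternatives can add a peak to a list, so they do not bear on the absence of the Su(z)2 intronic peak from male fru+. Low summits carry wide counting intervals: those of Sce rest on 46 to 82 fragments, and the male fru+ summit downstream of Su(z)2 on 63.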
